A study of Mus musculus with 4 samples.

Results

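The genes described here are the proteases of the epidermis and the inhibitors that hold them in check. They comprise kallikreins, other epidermal proteases, and inhibitors of the Serpinb, Spint and Spink families. A list of 37 genes was matched by symbol to probe sets (groups of probes summarised as 1 value) annotated with a single gene, and 35 of the 37 were found among 19938 genes. Serpine2 and Serpinb3b had no such probe set and are not analysed here. Each of the 35 had 1 probe set. Of these, 34 were among the 14953 genes tested, and Serpinb13 was left out by a filter on dim genes. Skin of mouse embryos at E16.5 (embryonic age in days) was compared on 4 Affymetrix arrays of total RNA, with 2 mice pooled on each array. The 2 Ovol2 BT arrays came from embryos with TRE-Ovol2-Flag and K5-tTA, a tetracycline-responsive Ovol2 transgene with a transactivator under the keratin 5 promoter of basal keratinocytes. The 2 control arrays came from embryos with TRE-Ovol2-Flag alone or from wild type embryos, so no control carried K5-tTA alone. The labels give the strain as CB6F1 for the controls and FVB/N for Ovol2 BT, although the protocols describe littermates, and genotype and labelled strain cannot be told apart in this design. All samples are labelled female.

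In the epidermis, kallikreins and membrane-bound serine proteases cut each other's precursors and then the proteins that hold corneocytes together, which lets the outer layer shed. Other proteases process profilaggrin and build the barrier, and lysosomal cathepsins degrade proteins inside cells. Kazal and Kunitz inhibitors (Spink and Spint) block the serine proteases outside the cell, and the Serpinb proteins are mostly intracellular serpins that trap serine or cysteine proteases. The Ovol2 protein is a transcription factor with zinc fingers, and the study asked which transcripts differ in early skin when it is overexpressed.

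Levels are given as deposited intensities or as log2(intensity + 16), and differences as Ovol2 BT minus control on that log2 scale, with n = 2 arrays per group throughout. Ovol2 itself, the check of the labels, rose by 5.01 (SE 0.27, limma adjusted p = 0.0253), from intensities of 176 and 297 to 7799 and 7949. The replicate 2 array of Ovol2 BT was the least like the rest. Pearson's r across the genes tested, which are not independent replicates, was 0.930 between the Ovol2 BT arrays and 0.983 between the control arrays. That array had 893 genes (5.97%) more than 2-fold under the mean of the remaining 3. The Y-linked genes Eif2s3y, Kdm5d and Uty read between 567 and 1339 on replicate 1 of either genotype and between 2.88 and 55.9 on replicate 2, which goes against the female label of both replicate 1 arrays. That signal was thus spread over both genotypes.

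The largest differences in both directions came from a few members. The carboxypeptidase gene Cpa4 differed by 1.56 and the kallikrein gene Klk6 by 1.04, while Serpinb10 differed by -2.23, Serpinb3c by -1.78 and Serpinb2 by -1.14. None of the 34 members passed a limma adjusted p under 0.05, a threshold that 4 of all genes tested passed (0.0268%). At an unadjusted p under 0.05, 4 members were higher (Cpa4, Klk6, Ctsl and Prss8; 11.8%) and 3 lower (Serpinb10, Serpinb3c and Serpinb2; 8.82%), against 2.49% and 1.74% of all genes tested (4.23% in either direction). The groups did not overlap for 12 members (35.3%), close to the 34.2% of all genes tested. Both Ovol2 BT arrays were above both controls for 7 members (20.6%), near the 20.1% of all genes, and below them for 5 (14.7%), near 14.1%. A difference of at least 0.5 in size was found for 7 members, against 9.43% of all genes. All 4 higher members were proteases and all 3 lower members were inhibitors. The members were chosen with earlier results of these data known, so these shares and this split are descriptions, not a test. Klk6, among the 4, was tested because of its level in Ovol2 BT skin. The median difference was 0.11 over 17 tested proteases and -0.29 over 17 tested inhibitors, against 0.03 over all genes tested. Differences were positive for 10 of the proteases (58.8%) and 4 of the inhibitors (23.5%), where 54.4% of all genes tested were at 0 or above. With each array centred on its median, 16 and 5 of them were positive, where 64.6% of all genes were. Without Ovol2 BT replicate 2 the inhibitors' median was -0.02, with 8 of 17 positive, and without control replicate 2 the proteases' median was 0.03. Over the 34 members together it was -0.02, with 14 positive and 20 negative. After the centring 21 were positive (61.8%) and the median was 0.04, so no direction is given for the members as a whole. In whole skin, fewer cells of a type and less RNA per cell cannot be told apart.

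**Figure D1:**
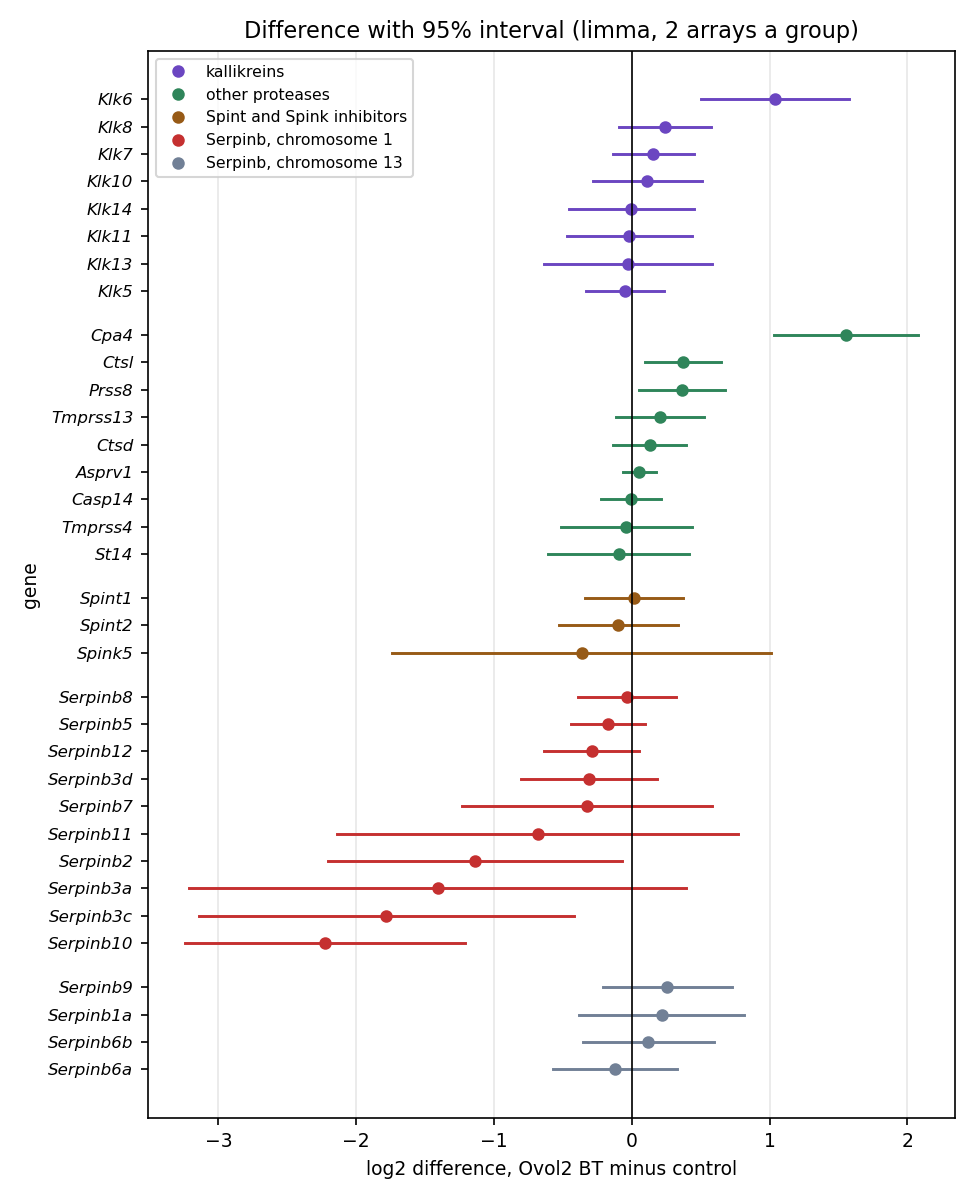
Log2 difference (Ovol2 BT minus control, horizontal axis) of each of the 34 tested members with its 95% interval from limma, grouped and coloured by family. The intervals of Klk6, Cpa4, Ctsl and Prss8 lie above 0 and those of Serpinb2, Serpinb3c and Serpinb10 below it, and those of the other members cross 0.

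The kallikreins are secreted serine proteases encoded together on chromosome 7. Of the 8 listed as members, only Klk6 had an unadjusted limma p under 0.05. Its probe set was dim, with intensities of 134 and 88.9 in the controls against 262 and 223 in Ovol2 BT skin. Both Ovol2 BT arrays were above both controls, and the difference was 1.04 (SE 0.21, 95% interval 0.50 to 1.58, adjusted p = 0.618). Its control mean of 6.97 lay under the filter level of 7.32, so Klk6 was tested because of its level in Ovol2 BT skin. The enzyme is a trypsin-like kallikrein. Klk9, a kallikrein outside the members, differed by a similar 1.06 (SE 0.20). Klk8, also called neuropsin, was the other of the 8 listed kallikreins whose groups did not overlap. It read 2793 and 2638 in the controls against 3102 and 3325 in Ovol2 BT skin, a difference of 0.24 (SE 0.13, adjusted p = 0.906).

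The kallikreins best known for shedding of the stratum corneum lay close to the controls. Klk5, a trypsin-like initiator of the cascade, differed by -0.05 (95% interval -0.33 to 0.23). Klk7, the chymotrypsin-like kallikrein that cuts corneodesmosomes, differed by 0.16 (95% interval -0.14 to 0.45). Klk14, a further trypsin-like activator, differed by -0.00364 (95% interval -0.46 to 0.45). These intervals leave room for moderate differences either way. Klk10 (0.11), Klk11 (-0.02) and Klk13 (-0.03) also had overlapping groups. Klk13 was the least even of them, at 1728 and 1422 in the controls against 1282 and 1845 in Ovol2 BT skin. In all, 4 of the 8 kallikreins were positive with a median of 0.05, and all 8 were positive once each array was centred on its median, so no direction is given for the family.

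Cpa4, a secreted carboxypeptidase that removes hydrophobic residues from the end of a protein, had the largest positive difference of the members. Its intensity was 1454 and 1100 in the controls against 4147 and 3389 in Ovol2 BT skin. Both Ovol2 BT arrays were well above both controls, by 1.56 (SE 0.21, 95% interval 1.03 to 2.08, adjusted p = 0.291), a ratio of 2.94 on the scale with the offset of 16. Each array left out in turn gave differences from 1.36 to 1.75. It ranked 18th from the highest of 14953 genes, 26th without control replicate 2 and 37th without Ovol2 BT replicate 1.

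Prss8 and Ctsl were also higher at an unadjusted p under 0.05, by smaller amounts. Prss8 encodes prostasin, a membrane-anchored serine protease needed for the skin barrier. It read 2879 and 2778 in the controls against 3701 and 3590 in Ovol2 BT skin, and the 0.36 difference (SE 0.12, adjusted p = 0.906) was 0.36 and 0.37 within the replicate numbers. Its unadjusted p of 0.0296 became 0.088 with the replicate number as a block, 0.0563 without a variance trend, and 0.182 and 0.244 without control replicate 1 and 2, all from limma. Ctsl encodes cathepsin L, a lysosomal cysteine protease with a known role in the hair cycle. It read 4313 and 4797 in the controls against 6128 and 5678 in Ovol2 BT skin, a difference of 0.37 (SE 0.11, adjusted p = 0.906). Its unadjusted limma p of 0.0168 became 0.0634 without a variance trend, and 0.159 and 0.0526 without control replicate 1 and 2. For both genes the groups stood apart by more than either group's own spread. Both were picked by a small p from these same arrays, so this gap is no further evidence. The groups did not overlap for 34.2% of all genes tested.

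The other proteases differed less. St14, which encodes matriptase, the membrane protease that works with prostasin, differed by -0.09 (95% interval -0.61 to 0.42), and its Ovol2 BT arrays, at 1280 and 1693, lay on either side of the controls at 1545 and 1601. Tmprss4 differed by -0.04 and Tmprss13 by 0.21 (SE 0.13), both transmembrane serine proteases; for Tmprss13 both Ovol2 BT arrays, at 3385 and 3461, were above both controls, at 3058 and 2879. Casp14, the caspase of cornifying keratinocytes, differed by -0.00292 (95% interval -0.22 to 0.22). Asprv1, the aspartic protease that cuts profilaggrin, differed by 0.06 (95% interval -0.06 to 0.18). It was bright, at 14475 to 15459 on the 4 arrays, and whether so bright a probe set can still show a fold was not tested. Ctsd, the lysosomal aspartic protease cathepsin D, differed by 0.13 (95% interval -0.13 to 0.39).

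The inhibitors outside the Serpinb family showed no difference beyond their spread. Spint1 and Spint2 encode the Kunitz inhibitors HAI-1 and HAI-2, which block matriptase and prostasin. Spint1 differed by 0.02 (95% interval -0.34 to 0.37) and Spint2 by -0.10 (95% interval -0.53 to 0.33). Spink5 encodes LEKTI, the Kazal inhibitor of kallikreins that is lost in Netherton syndrome. It read 2218 and 2860 on the control arrays but 3542 on Ovol2 BT replicate 1 and 1075 on Ovol2 BT replicate 2, so the Ovol2 BT arrays held both the highest and the lowest level. Its difference of -0.36 (SE 0.55) was 0.49 without Ovol2 BT replicate 2 and -1.22 without Ovol2 BT replicate 1.

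Serpinb10 had the lowest difference of all 14953 genes tested, ahead of the steroid reductase gene Akr1d1 at -2.17. It encodes bomapin, a serpin that inhibits trypsin-like proteases and is known mainly from blood-forming cells. Its intensity was 2589 and 2848 on the control arrays, 869 on Ovol2 BT replicate 1 and 368 on Ovol2 BT replicate 2. Both Ovol2 BT arrays were far below both controls, with a difference of -2.23 (SE 0.41, 95% interval -3.24 to -1.21, adjusted p = 0.484), a ratio of 4.69 of control over Ovol2 BT. Replicate 2 minus replicate 1 was 0.14 among the controls and -1.20 in Ovol2 BT. It also ranked lowest under quantile normalisation, median centring and an offset of 64, 2nd with an offset of 1, and between 3rd and 10th with an array left out.

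**Figure D2:**
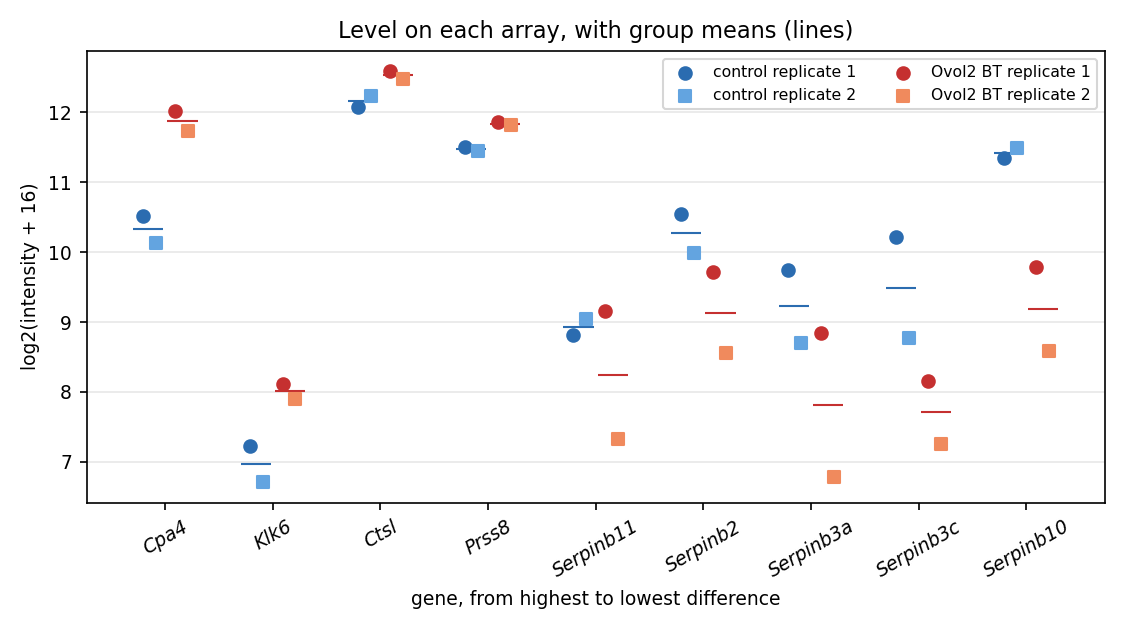
Level, as log2(intensity + 16), of the 9 members with an unadjusted p under 0.05 or a difference of at least 0.5 in size, on each of the 4 arrays, with a line at each group's mean. Cpa4, Klk6, Ctsl and Prss8 are higher on both Ovol2 BT arrays, Serpinb2, Serpinb3c and Serpinb10 are lower on both, and Ovol2 BT replicate 2 is the lowest array for all 5 Serpinb genes shown.

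Serpinb2, next to Serpinb10 on the chromosome, encodes plasminogen activator inhibitor 2, a serpin of keratinocytes and macrophages. It read 1481 and 1003 on the control arrays, 821 on Ovol2 BT replicate 1 and 362 on Ovol2 BT replicate 2. Both Ovol2 BT arrays were below both controls, with a difference of -1.14 (SE 0.43, 95% interval -2.20 to -0.07, adjusted p = 0.906). Without Ovol2 BT replicate 2 it was -0.56, close to the control arrays' own difference of -0.55 (replicate 2 minus replicate 1). Without control replicate 1 it was -0.86, and its unadjusted limma p of 0.0407 became 0.129.

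The Serpinb3 genes are the mouse counterparts of the human squamous cell carcinoma antigens, serpins that block cysteine or serine proteases. Serpinb3c read 1174 and 420 in the controls against 270 and 137 in Ovol2 BT skin. Both Ovol2 BT values were below both controls, with a difference of -1.78 (SE 0.54, 95% interval -3.14 to -0.42, adjusted p = 0.906), but control replicate 2 minus control replicate 1 was itself -1.45, and without control replicate 1 the difference was -1.06. Serpinb3a read 842 and 400 on the control arrays, 443 on Ovol2 BT replicate 1 and 94.1 on Ovol2 BT replicate 2. Its groups overlapped, and its difference of -1.41 (SE 0.72) was -0.38 without Ovol2 BT replicate 2. Its unadjusted limma p of 0.102 became 0.0025 with the replicate number as a block. Serpinb3d was dim, at 125 to 207 on the 4 arrays, and differed by -0.31 (SE 0.20). Its Ovol2 BT mean of 7.30 lay under the filter level of 7.32, so it was tested because of its level in the controls. The Serpinb3 genes are close copies of each other, and how far their probes cross-hybridise was not tested.

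The other Serpinb genes of chromosome 1 are also expressed in stratified epithelia. Serpinb11 (-0.68, SE 0.58) and Serpinb7 (-0.32, SE 0.36), which encode epipin and megsin, were below both controls on Ovol2 BT replicate 2 alone. Serpinb11 read 435 and 510 in the controls against 555 and 145 in Ovol2 BT skin, and without Ovol2 BT replicate 2 its difference was 0.23. Serpinb7 read 1841 and 2582 in the controls against 2440 and 1236 in Ovol2 BT skin, and its difference without that array was 0.16. Serpinb5 (maspin) and Serpinb12, by contrast, were slightly lower on both Ovol2 BT arrays. Serpinb5 read 7427 and 7411 against 7154 and 6056 (-0.17, SE 0.11), and Serpinb12 read 4408 and 3865 against 3571 and 3183 (-0.29, SE 0.14, adjusted p = 0.906). Serpinb8 differed by -0.03 (95% interval -0.39 to 0.32). Serpinb13, under the filter level, read 85.8 and 75.9 in the controls against 71.4 and 43.3 in Ovol2 BT skin.

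Taken in their order along chromosome 1 (RefSeq, GRCm38.p6), the Serpinb genes differed unevenly. All 10 tested genes of the cluster had negative differences, with a median of -0.50, though Serpinb8 was 0.03 with each array centred on its median. Of all genes tested, 54.4% were at 0 or above. Serpinb3d was among the 10 because of its level in the controls. Serpinb8 (-0.03) is the neighbour of Serpinb10 (-2.23), and Serpinb3d (-0.31) lies between Serpinb3a (-1.41) and Serpinb3c (-1.78). On Ovol2 BT replicate 2 the genes Serpinb2, Serpinb3a, Serpinb3c, Serpinb10 and Serpinb11 (5 of 10) were more than 2-fold under the remaining arrays' mean, against 5.97% of all genes tested. Without that array 3 of the 10 were positive, and the median was -0.18.

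**Figure D3:**
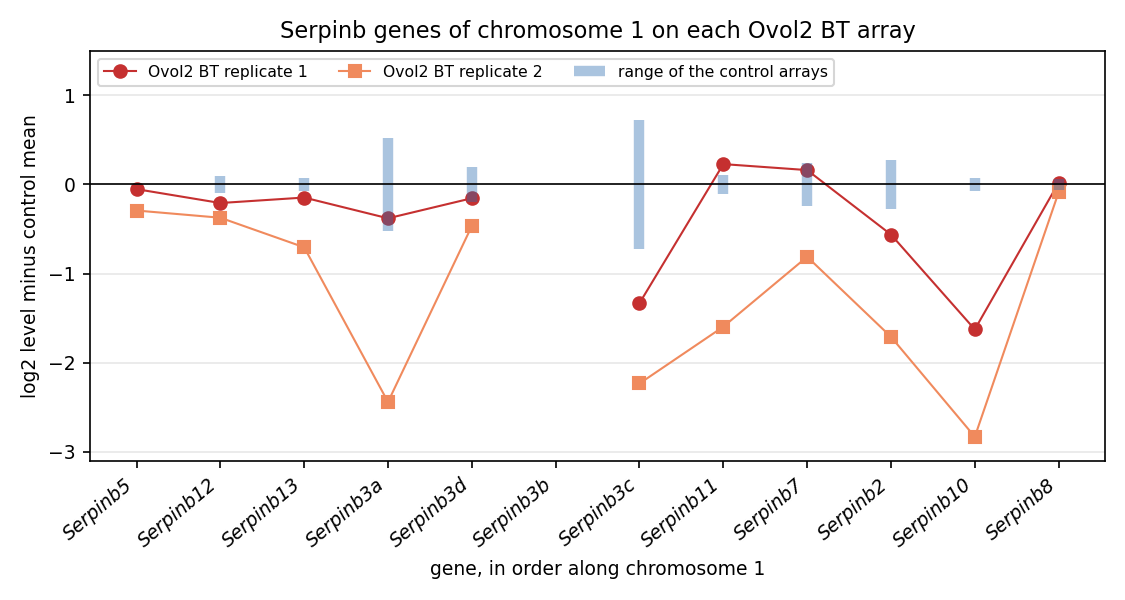
Log2 level minus the control mean (vertical axis) for each Ovol2 BT array, with the Serpinb genes of chromosome 1 in chromosomal order; blue bars span the 2 control arrays, and Serpinb3b has no value. Serpinb10 (-1.63 and -2.83), Serpinb3c (-1.33 and -2.23), Serpinb2, Serpinb5, Serpinb12 and Serpinb13 are below the control range on both arrays, while Serpinb3a, Serpinb3d, Serpinb7, Serpinb8 and Serpinb11 are below it on replicate 2 only.

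The Serpinb genes of chromosome 13 did not share these low values. Serpinb1a, an inhibitor of neutrophil elastase, differed by 0.22 (95% interval -0.38 to 0.82), and Serpinb9, the granzyme B inhibitor, by 0.26 (95% interval -0.21 to 0.72). The control mean of Serpinb9, 7.19, lay under the filter level of 7.32, so it was tested because of its level in Ovol2 BT skin. Serpinb6a differed by -0.12 (95% interval -0.57 to 0.33) and Serpinb6b by 0.12 (95% interval -0.36 to 0.59). All 4 had overlapping groups. Over all 14 tested Serpinb members the median was -0.30, with 11 negative. The difference between the clusters was not tested.

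Promoter sequences of RefSeq (GRCm38.p6), from 250 bases before to 50 bases after a start site, were on hand for 30 of the 37 genes. They are shown for the members with the largest differences, 5′ to 3′ on the gene's strand, with capitals for TGANTCA. This is a loosened form, with any base in the middle, of TGA(C/G)TCA, the site of AP-1 factors. It reads as TGANTCA on the other strand too. For Serpinb2, 1 of 2 listed starts is shown. Serpinb10 lies at chr1:107528753-107529052 on the plus strand, Serpinb2 at chr1:107511173-107511472 on the plus strand, Serpinb3c at chr1:107278322-107278621 on the minus strand, Serpinb3a at chr1:107052254-107052553 on the minus strand and Cpa4 at chr6:30568119-30568418 on the plus strand.
Serpinb10: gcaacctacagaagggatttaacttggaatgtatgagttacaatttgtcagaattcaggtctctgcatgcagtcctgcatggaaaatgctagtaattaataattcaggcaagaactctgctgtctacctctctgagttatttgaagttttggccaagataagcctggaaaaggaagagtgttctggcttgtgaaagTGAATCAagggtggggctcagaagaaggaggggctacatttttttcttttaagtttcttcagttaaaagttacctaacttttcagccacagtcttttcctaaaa
Serpinb2: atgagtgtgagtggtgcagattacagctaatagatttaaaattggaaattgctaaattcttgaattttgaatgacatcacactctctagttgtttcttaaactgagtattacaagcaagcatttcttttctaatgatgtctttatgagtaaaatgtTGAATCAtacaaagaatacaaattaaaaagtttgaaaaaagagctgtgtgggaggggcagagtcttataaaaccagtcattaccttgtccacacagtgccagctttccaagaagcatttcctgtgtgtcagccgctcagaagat
Serpinb3c: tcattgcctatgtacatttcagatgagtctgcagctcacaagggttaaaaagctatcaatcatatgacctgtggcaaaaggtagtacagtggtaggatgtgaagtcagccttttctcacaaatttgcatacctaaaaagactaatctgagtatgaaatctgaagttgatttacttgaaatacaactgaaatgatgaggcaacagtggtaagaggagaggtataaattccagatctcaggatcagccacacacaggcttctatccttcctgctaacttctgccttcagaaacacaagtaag
Serpinb3a: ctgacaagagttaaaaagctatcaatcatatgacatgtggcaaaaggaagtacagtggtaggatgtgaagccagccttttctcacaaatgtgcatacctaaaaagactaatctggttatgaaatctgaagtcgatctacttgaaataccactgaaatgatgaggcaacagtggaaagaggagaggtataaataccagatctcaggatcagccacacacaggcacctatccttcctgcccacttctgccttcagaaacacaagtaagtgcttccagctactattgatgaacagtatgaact
Cpa4: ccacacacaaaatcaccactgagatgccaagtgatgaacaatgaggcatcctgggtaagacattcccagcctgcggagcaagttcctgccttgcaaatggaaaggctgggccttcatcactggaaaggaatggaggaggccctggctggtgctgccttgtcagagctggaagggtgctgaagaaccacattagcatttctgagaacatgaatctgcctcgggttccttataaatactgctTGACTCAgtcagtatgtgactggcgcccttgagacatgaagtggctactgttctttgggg

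TGANTCA was common in the chromosome 1 Serpinb promoters. It was found in 7 of 11 (63.6%), namely Serpinb2, Serpinb5, Serpinb7, Serpinb8, Serpinb10, Serpinb11 and Serpinb12, and in none of the 4 Serpinb3 promoters. Only Serpinb7 and Serpinb8 of the 7 held it as TGAGTCA. The rest held TGAATCA or TGATTCA, which are outside the AP-1 site TGA(C/G)TCA. How many of all genes hold that stricter site was not counted. TGANTCA was in 9 of the 30 members with a promoter, the others being Cpa4 and Spint1, both as TGACTCA. It was in none of the 8 kallikreins and in 8.97% of all 27025 genes with a promoter. Genes that hold it included both Serpinb10 (-2.23) and Serpinb8 (-0.03), as well as Cpa4 (1.56). In Serpinb10 it lies at -54 to -48 from the start and in Cpa4 at -10 to -4. The core letters of the Ovo binding site, CCGTTA, searched on both strands, were in no member's promoter and in 3.15% of all genes. The looser CNGTTA, which contains the core, was in Serpinb10 alone of the members, as CAGTTA at bases 6 to 11 after the start, and in 25.9% of all genes. Serpinb3a and Serpinb3c shared 74.9% of aligned promoter bases, and Serpinb3b and Serpinb3c 90.0%. A match is a description of letters, not of binding, and its absence says only that these letters are not in this window.

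Which members passed depended on which Ovol2 BT array was left out. Without Ovol2 BT replicate 2, Cpa4 (1.70, limma adjusted p = 0.00342) and Serpinb10 (-1.63, adjusted p = 0.00181) were the 2 members that passed, among 107 genes (0.716%). Without Ovol2 BT replicate 1, 9 members passed among 2453 genes (16.4%), namely Cpa4, Klk6, Spink5, Serpinb2, Serpinb3a, Serpinb3c, Serpinb7, Serpinb10 and Serpinb11, of which 7 were lower. In these fits the lone Ovol2 BT array was assumed to vary like the controls. Without control replicate 1, or without control replicate 2, no member passed in limma, where 0.0468% and 0.0268% of all genes passed. Of the members, 2 were higher and 2 lower at an unadjusted p under 0.05 without the former, and 2 higher and 4 lower without the latter.

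**Figure D4:**
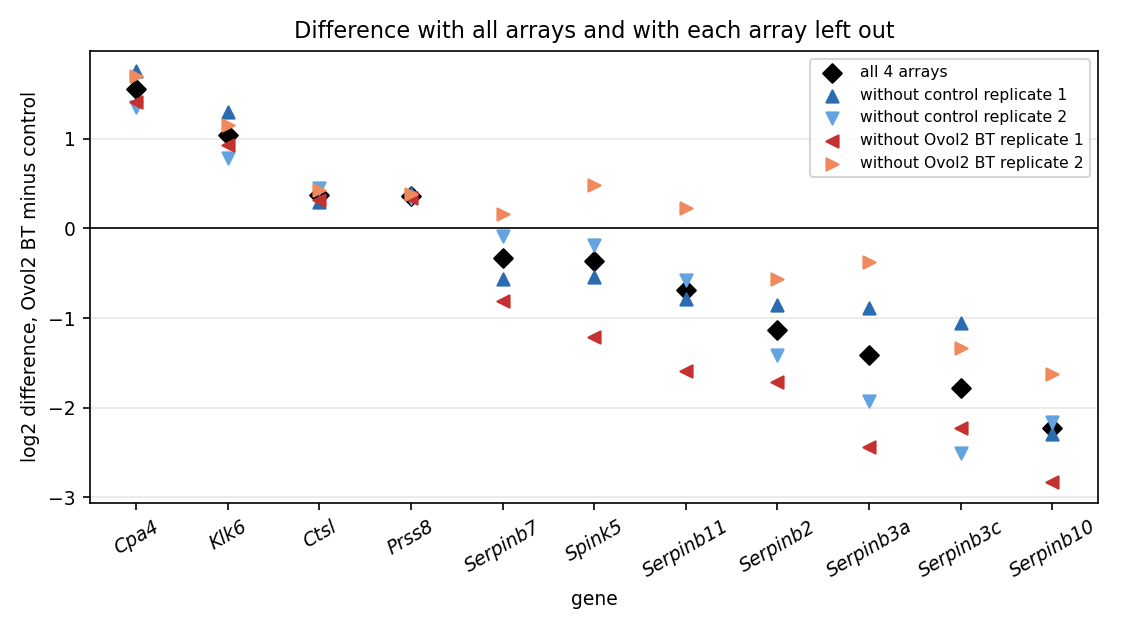
Log2 difference (Ovol2 BT minus control, vertical axis) of 11 members with all 4 arrays and with each array left out in turn. Cpa4, Klk6, Ctsl and Prss8 stay above 0 and Serpinb2, Serpinb3a, Serpinb3c and Serpinb10 below 0 in every case, while Serpinb7, Serpinb11 and Spink5 are above 0 without Ovol2 BT replicate 2.

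Some lists of cell type markers differed between the groups along with these results, and the part of these lists in the results was not tested. Of 7 basal keratinocyte markers 3 (Krt5, Krt14 and Krt15) were lower at an unadjusted limma p under 0.05. Summed intensity over the 7 was 38480 to 40250 on the control and 25078 to 26409 on the Ovol2 BT arrays. Krt5 and Krt14 were the brightest of the 7 on every array, so the sum mostly follows them. Trp63 (-0.21), Itga6 (-0.09) and Col17a1 (-0.05) had overlapping groups, and Itgb4 (0.45) was higher on both Ovol2 BT arrays. Of 7 granular and cornified markers 4 (Flg2, Cdsn, Lce1b and Lce1i) were higher and Tgm3 was lower, with sums of 40680 to 45220 and 50906 to 52860. All 7 periderm markers were higher, with sums of 10806 to 12231 and 28656 to 29578. The 4 spinous markers measured differed by a median of -0.08, with sums of 51106 to 51774 and 48144 to 49879. Myeloid cells can express Serpinb2, Serpinb10 and cathepsins. Of their 8 tested markers 1 (Lyz2) was higher at an unadjusted p under 0.05, with sums of 6868 to 7527 over 9 markers on the control and 8482 to 9099 on the Ovol2 BT arrays. The differences of the 8 went both ways, 5 positive and 3 negative. Of 6 liver and yolk sac markers 5 were higher at an unadjusted limma p under 0.05, with sums of 1279 to 1307 and 3185 to 5696. Among the 5, Afp and Ttr had control means of 7.15 and 7.04, under the filter level. They were thus tested because of their levels in Ovol2 BT skin. Erythroid markers summed to 14770 on Ovol2 BT replicate 2 and to 3371 to 6753 on the other arrays. Median differences were 0.02 for fibroblast, 0.10 for endothelial, -0.09 for melanocyte and -0.01 for skeletal muscle markers. In those lists only Tyr, of melanocytes, had an unadjusted limma p under 0.05 (-0.82). Skeletal muscle markers summed to 40830 and 23663 on the control and to 22596 and 44087 on the Ovol2 BT arrays. No marker in these lists was at 0.

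Other genes of the same pathways were taken from lists of 148 genes, of which 73 were tested. None passed in limma over all genes, and at an unadjusted p under 0.05, 8 (11.0%) were higher and 4 (5.48%) lower, against 2.49% and 1.74% of all genes tested. These lists were chosen with earlier results of these data known, so the shares are not a test. Ctsg, among the 8, was tested because of its level in Ovol2 BT skin, and Spink12, among the 4, because of its level in the controls. The largest difference was that of Serpinb9b, a rodent relative of Serpinb9, which read 411 and 234 in the controls against 1885 and 913 in Ovol2 BT skin (2.02, SE 0.43, adjusted p = 0.651). Klk9, a kallikrein outside the 37, read 2315 and 1635 against 4037 and 4136 (1.06, SE 0.20, adjusted p = 0.484), a difference like that of Klk6. The groups did not overlap for either gene, but this held for 50.7% of the tested related genes and 34.2% of all genes tested.

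Most of the other inhibitors listed had positive differences. These were 8 of 9 tested Spink and whey acidic protein (WAP) inhibitors (median 0.23) and 9 of 9 serpins of other clades (median 0.24). Both other tested Serpinb genes were positive too, against 2 of 8 cystatins (median -0.09). Of all genes tested, 54.4% were at 0 or above, and 64.6% were positive with each array centred on its median. Spink7 and Wfdc2 had control means of 7.22, under the filter level, so they were tested because of their levels in Ovol2 BT skin. Spink12, a Kazal inhibitor, read 289 and 492 in the controls against 124 and 103 in Ovol2 BT skin (-1.61, SE 0.27, limma adjusted p = 0.432). Its Ovol2 BT mean of 7.01 lay under the filter level, so Spink12 was tested because of its level in the controls. The cystatin genes Cstdc6 (-0.81, SE 0.19) and Stfa3 (-0.46, SE 0.12), which encode inhibitors of cysteine proteases, were lower on both Ovol2 BT arrays. Serpina12, which encodes vaspin, an inhibitor of Klk7, was higher (1.04, SE 0.28). Among proteases, Ctsg of neutrophils and mast cells was higher (0.74, SE 0.23), with a control mean of 7.02 under the filter level, so it was tested because of its level in Ovol2 BT skin. Prss23 was lower (-0.53, SE 0.21). Of 15 tested protease targets and receptors 4 (26.7%) were higher at an unadjusted p under 0.05, against 2.49% of all genes tested. They were Flg2 (1.35, SE 0.50), a filaggrin-like protein, the cytokine gene Il18 (0.95, SE 0.31), the sodium channel subunit gene Scnn1g (0.58, SE 0.16) and Cdsn (0.31, SE 0.10), which encodes the corneodesmosin that kallikreins cut. The controls of Flg2 were uneven, at 922 and 303 against 1365 and 1399 in Ovol2 BT skin.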

How the data were processed

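Total RNA of embryonic mouse skin was measured on 4 arrays, 2 per group. Each probe set has a deposited intensity, linear and not on a log scale, from the authors' run of Affymetrix Expression Console 1.1.1 with PLIER 2.0 (submitters' processing notes). How arrays were scaled to each other is not given in the sources used here. Precision is limited by the number of arrays.

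Platform annotation gave 1 symbol for 21789 of 35557 probe sets, several for 1621 and none listed for 12147; only the first kind was used, and 21698 matched the RefSeq table of GRCm38.p6 by Entrez number. Values were taken to log2(intensity + 16), which shrinks the folds of dim genes, without further normalisation. The brightest probe set stood for each gene, and genes with a mean under the 25th percentile (7.32) were left out. limma 3.58.1 in R 4.3.3 estimated Ovol2 BT minus control from all 4 arrays (lmFit, eBayes with an intensity trend, 2 residual and 3.45 prior degrees of freedom), two-sided, with Benjamini-Hochberg adjustment over 14953 genes. The steps were tested on simulated data. The smallest p of an exact permutation test with 2 against 2 arrays is 0.333, and no such test is reported. The labels call the replicates biological, each a pool of 2 mice.

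Members with an unadjusted p under 0.05 or a difference of at least 0.5 in size were named with every array's value, as were, after their values were seen, Klk8, Klk13, St14, Tmprss13, Spink5, Serpinb5, Serpinb7, Serpinb12 and Serpinb13. From each related list up to 4 genes with the smallest p under 0.05 were named. The members and lists were chosen with earlier results of these data known. Same-numbered arrays are not stated to share a litter or day. Alternatives covered scaling, offset, filter, probe set rule, variance model, replicate block and each array left out.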

Additional observations from a re-analysis of the deposited data

How the results depend on the processing

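Of 14 other settings, 8 can move an estimate, and there the 9 members with the largest differences or an unadjusted p under 0.05 kept their direction in 71 of 72 values. The exception was Serpinb11 without Ovol2 BT replicate 2 (0.23), with -1.60 without Ovol2 BT replicate 1. With all 4 arrays, no member passed under any setting tried, in limma. Median centring gave a median over the members of 0.042 and 7 genes passing over all genes tested. A variance without a trend left 2 members higher at an unadjusted p under 0.05 and 0 genes passing, with 601 at an unadjusted p under 0.05. With the replicate number as a block, 9 genes and 0 members passed; same-numbered arrays deviated from their group means with r = -0.17, and no label says that they share a litter or day, so the numbers are not taken to pair the arrays, although Y-linked signal followed the number. Under this block the unadjusted p of Prss8 became 0.088 and that of Serpinb3a 0.0025. A crossed replicate block, added after seeing the data, gave 5 genes and 0 members.

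With each array left out in turn, 0 to 9 members passed, 2 to 5 were higher and 2 to 9 lower at an unadjusted p under 0.05. The median ranged from -0.043 to 0.036 over all members, from 0.0099 to 0.19 over kallikreins and from -0.42 to -0.036 over Serpinb members. Between 4 and 2453 genes passed. The cause was not tested. Signal limits Serpinb13, Klk6, Serpinb3d and Serpinb9, whose levels lay near or under the filter. It also limits Serpinb3a (6.78), Serpinb3c (7.26) and Serpinb11 (7.33) on Ovol2 BT replicate 2, near or under the filter level of 7.32.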
